A study of Mus musculus with 6 samples.

Results

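The HSP70 and HSP110 chaperone genes were followed in follicular B cells with and without a working copy of Myh9, the gene of the myosin IIa heavy chain. The group holds 10 genes of the 20433 gene names that could be read in the authors' deposited table: Hspa8, Hspa1a, Hspa1b, Hspa2, Hspa14, Hspa9, Hspa13, Hsph1, Hspa4 and Hspa4l. Its members were picked by gene name. The family itself was chosen on the level of its genes in these same data, which hold 1 pooled value per genotype. The differences below are therefore a description and not a test. B220+ AA4.1- CD23+ follicular B cells with low CD21 were sorted from C57BL/6 mice, 3 samples of CD23Cre+Myh9wt/fl and 3 samples of CD23Cre+Myh9fl/fl, and their RNA was amplified and sequenced. Both groups carry Cre under the CD23 promoter and at least 1 loxP-flanked Myh9 allele, so wt/fl cells are haploinsufficient for myosin IIa and fl/fl cells are called deficient, and Cre acts only once B cells express CD23. The labels give no age, the study's methods give young adult ages over several experiments and none for the sequenced animals, and no Cre-negative or wild-type sample was compared. The deposited values are FPKM (fragments per kilobase of transcript, scaled to the fragments mapped in the library), with 1 value per genotype pooled over its 3 samples. Hence no spread between mice can be given, and values next to each other in any ranking below cannot be called different or equal beyond their error. Read depth per sample is unknown.

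HSP70 proteins are chaperones that bind exposed hydrophobic stretches of unfolded proteins and release them in a cycle driven by ATP. J-domain proteins (HSP40) deliver clients and trigger ATP hydrolysis, and nucleotide exchange factors reset the cycle. HSP110 proteins are distant relatives of HSP70 that act mainly as such exchange factors. Many cytosolic members are transcribed at a higher rate when heat shock factor 1 (HSF1) binds heat shock elements. These elements are inverted repeats of GAA units. Chaperones of the endoplasmic reticulum answer mostly to other stress pathways.

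The promoters of Hspa1a, Hspa1b and Hsph1 are shown because they hold letters of heat shock elements, and that of Hspa4 because it holds none. The stretch of Hspa4l, which also holds none, is not printed because it lies inside the annotated GENCODE M21 transcript. Sequences are from RefSeq on build GRCm38.p6, cover the 150 bases before the start of the gene on the strand of the gene, and have pairs of inverted GAA units (GAANNTTC or TTCNNGAA, each its own reverse complement, so that both strands are covered) in capitals. The 4 promoters are Hspa1a at chr17:34972157-34972306, Hspa1b at chr17:34959239-34959388, Hsph1 at chr5:149636337-149636486 and Hspa4 at chr11:53300480-53300629, all on the minus strand.
Hspa1a: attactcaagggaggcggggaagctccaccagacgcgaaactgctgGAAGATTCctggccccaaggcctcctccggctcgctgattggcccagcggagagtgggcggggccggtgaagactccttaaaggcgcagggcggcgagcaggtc
Hspa1b: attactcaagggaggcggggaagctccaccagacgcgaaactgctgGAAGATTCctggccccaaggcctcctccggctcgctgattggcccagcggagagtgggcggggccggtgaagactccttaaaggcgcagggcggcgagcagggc
Hsph1: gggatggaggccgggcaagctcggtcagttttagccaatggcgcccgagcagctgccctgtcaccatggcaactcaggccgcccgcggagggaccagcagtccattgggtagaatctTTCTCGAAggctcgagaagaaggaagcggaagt
Hspa4: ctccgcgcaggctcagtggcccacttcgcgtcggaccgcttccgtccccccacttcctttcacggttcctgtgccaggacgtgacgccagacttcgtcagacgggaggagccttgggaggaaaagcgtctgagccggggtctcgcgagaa

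Hspa1a and Hspa1b share these 150 bases but for 1, and both hold GAAGATTC from base −104 to base −97, counted with the start of the gene at 0. Hsph1 holds TTCTCGAA from −33 to −26 and, after the start, TTCTGGAAAGTTC from 36 to 48, in which 3 alternating units follow each other with 2 bases between them and the 2 pairs overlap. RefSeq lists 2 starts for Hsph1, and both windows hold the same matches. In the windows from 250 bases before to 50 bases after the start, no pair was found for Hspa4, Hspa4l, Hspa2 or Hspa14. The window of Hspa4l lies mostly inside its annotated GENCODE M21 transcript, so little of the sequence before that transcript was searched. Windows for Hspa8, Hspa9 and Hspa13 were not used here. Of all 32851 windows of the same length, 15.1% held a pair of units and 0.603% held 3 units. A match describes letters only, and its absence says only that these letters are not in the window.

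**Figure D1:**
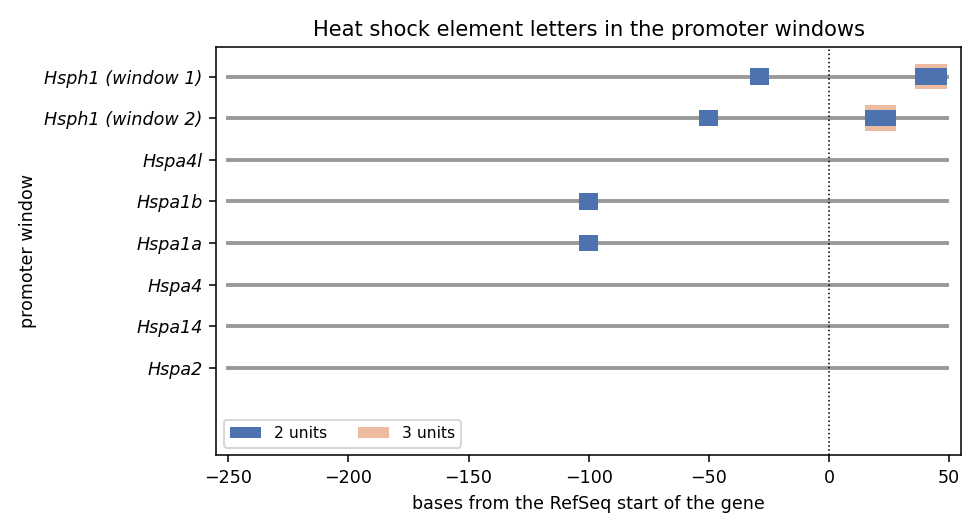
Positions of heat shock element letters in the 8 promoter windows of 7 members, with the horizontal axis in bases from the RefSeq start of the gene (dotted line, 0) and 1 grey line per window, in the order of the log2 difference between genotypes, lowest at the top. Blue marks pairs of units and orange marks 3 units, seen only in Hsph1. The windows of Hspa4, Hspa4l, Hspa2 and Hspa14 hold neither, and that of Hspa4l lies mostly inside its annotated GENCODE M21 transcript.

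Among the cytosolic HSP70 genes, Hspa8 was by far the most abundant and was at about 50% of its haploinsufficient level in myosin IIa-deficient cells. Hspa8 encodes HSC70, the constitutive chaperone that also uncoats clathrin vesicles. Its single entry lies on chromosome 9 from 40609355 to 40613282 (mm9), with 1574 FPKM in haploinsufficient and 788 FPKM in deficient cells, a log2 difference of −0.997 (all log2 differences are fl/fl minus wt/fl after 1 FPKM was added to each level). In rank of level among the 9866 compared genes, those averaging 1 FPKM or more over the 2 genotypes, Hspa8 was at place 63 in haploinsufficient and at place 102 in deficient cells. Only 1 gene, Rpl41, lost more FPKM than Hspa8. Of the 134 genes averaging 500 FPKM or more, Hspa8 was the 1 gene that was lower by at least 1.5-fold. In bulk RNA, fewer cells of a type and less RNA per cell cannot be told apart.
Hspa8 has many processed copies in the genome. Of the stretches of 50 bases in its GENCODE M21 transcript, 73.2% also occur in transcripts of 11 pseudogenes. How many fragments this affected was not examined, so the level of Hspa8 is uncertain by an unknown amount in both genotypes.

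The stress-inducible HSP70 genes were almost silent next to Hspa8. Hspa1b (chromosome 17, 35093373 to 35096183, mm9) was at 3.76 FPKM in haploinsufficient and 2.04 FPKM in deficient cells, a log2 difference of −0.65. Hspa1a (chromosome 17, 35106303 to 35109101) was at 1.27 and 0.777 FPKM, a log2 difference of −0.35, which without the added 1 FPKM would be −0.71. Summed, the pair went from 5.03 to 2.82 FPKM, or 56.0% of the wt/fl level, and the wt/fl level of Hspa8 was 418 times that of Hspa1b. Both genes have a single exon and are near-identical. Of the 50-base stretches of Hspa1b, 62.3% also occur in Hspa1a or Hspa1l, so the split between Hspa1a and Hspa1b is uncertain, while their sum is less so. Hspa2, a relative best known from male germ cells, was at 2.35 FPKM in haploinsufficient and 2.64 FPKM in deficient cells on chromosome 12 (77505162 to 77507923), a log2 difference of 0.12. It shared none of its 50-base stretches with another gene.

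The HSP110 genes gave unlike values, with Hsph1 and Hspa4l lower in deficient cells and Hspa4 near its haploinsufficient level. Hsph1, which encodes HSP105 (chromosome 5, 150419419 to 150438890, mm9), had 129 FPKM in haploinsufficient and 40.3 FPKM in deficient cells, 31.3% of the wt/fl level and a log2 difference of −1.65. Of the compared genes, 11 had a lower log2 difference than Hsph1. Hspa4l, which encodes the HSP110 protein OSP94 (chromosome 3, 40549534 to 40594287), was at 13.2 and 5.35 FPKM, 40.4% of the wt/fl level and a log2 difference of −1.16, with 29 genes lower. Hspa4, which encodes APG-2 (chromosome 11, 53073315 to 53113981), was at 71.3 and 72.1 FPKM, a log2 difference of 0.01.
The order of the HSP110 levels therefore turned over. Hsph1 was at 1.81 times the level of Hspa4 in wt/fl and at 0.560 times in fl/fl cells, and Hspa4l was lowest in both. Summed over the 3 genes, HSP110 stood at 213 FPKM in haploinsufficient and 118 FPKM in deficient cells. These genes have long transcripts of 18 or 19 coding exons, and Hsph1 and Hspa4 share none of their 50-base stretches with other genes.

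The HSP70 genes that serve other sites had near-equal pooled values in both genotypes or were low. Hspa9, the mitochondrial HSP70 mortalin that pulls proteins through the inner membrane, was at 54.4 FPKM in haploinsufficient and 54.7 FPKM in deficient cells (chromosome 18, 35097068 to 35114005, mm9). Hspa14, whose protein binds ribosomes with a J-domain partner, was at 24.8 and 25.4 FPKM (chromosome 2, 3406125 to 3430086). Of its 50-base stretches, 15.6% also occur in the annotated gene Gm45902. Hspa13, a microsomal relative of HSP70, was at 3.32 and 2.47 FPKM (chromosome 16, 75755435 to 75767063), a log2 difference of −0.31. Together these 3 genes summed to 82.5 FPKM in haploinsufficient and 82.6 FPKM in deficient cells.

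**Figure D2:**
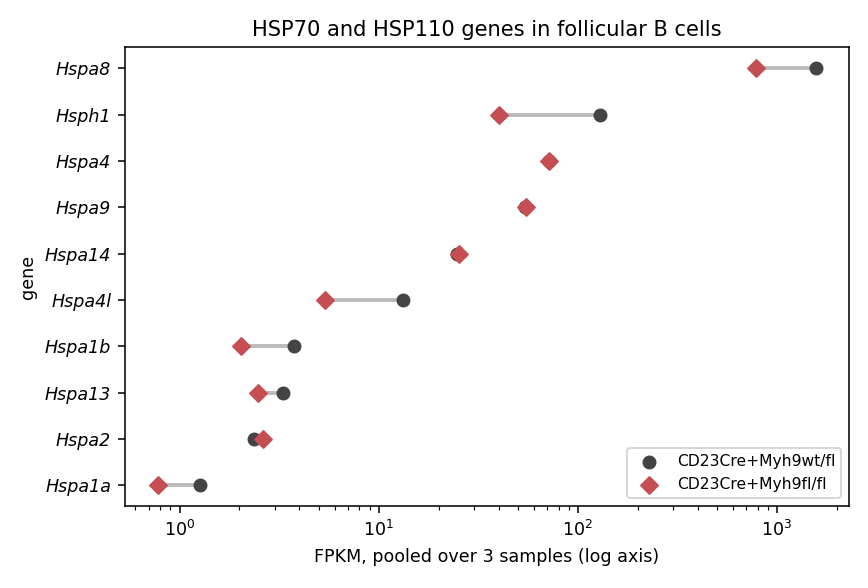
FPKM of the 10 HSP70 and HSP110 genes on a log axis, with 1 pooled value per genotype (grey circles for CD23Cre+Myh9wt/fl, red diamonds for CD23Cre+Myh9fl/fl) and a line between them. No error can be drawn for pooled values; Hspa8, Hsph1, Hspa4l and Hspa1b show the widest gaps, and the symbols of Hspa4, Hspa9 and Hspa14 nearly coincide.

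Of the 10 members, all averaged 1 FPKM or more, 4 were lower in fl/fl by at least 1.5-fold on the log2(FPKM + 1) scale (Hsph1, Hspa4l, Hspa8 and Hspa1b), 0 were higher by that much and 6 lay between. Over all compared genes, 1.53% were lower and 0.791% were higher by at least 1.5-fold. The family was chosen with these values known, so nothing is read from the contrast between its share and that of all genes. The median log2 difference was −0.33 over the members and 0.0026 over all compared genes, 95% of which lay between −0.47 and 0.40. The share of genes past 1.5-fold depends on the level: 3.93% were lower among genes with a mean of 1 to 5 FPKM, where Hspa1a, Hspa1b, Hspa2 and Hspa13 lie, 0.933% at 5 to 20 FPKM, where Hspa4l lies, and 1.17% at 50 to 100 FPKM, where Hsph1, Hspa4 and Hspa9 lie.

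**Figure D3:**
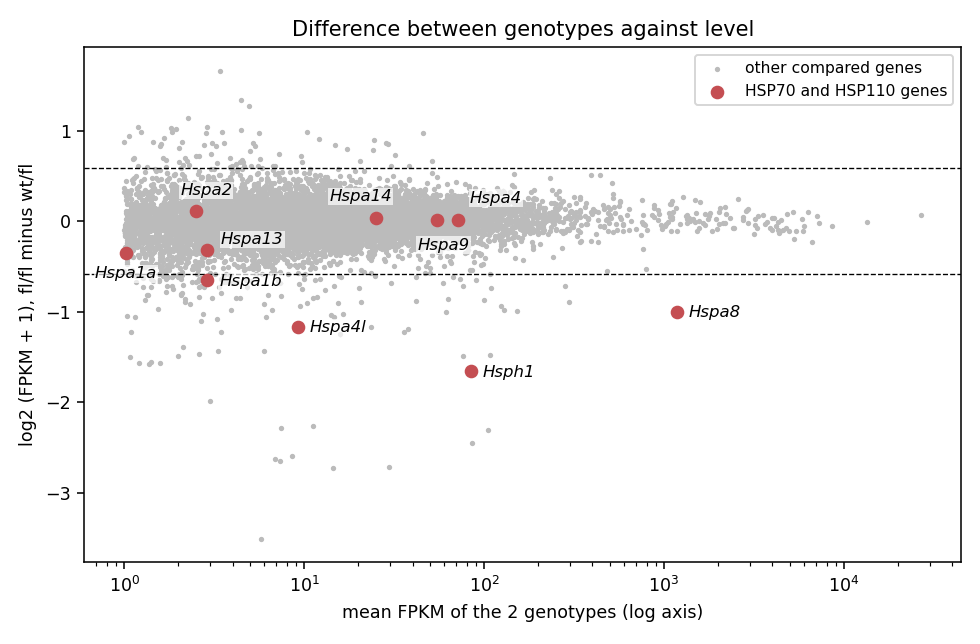
Log2 difference between genotypes (fl/fl minus wt/fl, 1 FPKM added) against mean FPKM on a log axis for the 9866 compared genes (grey) and the HSP70 and HSP110 members (red). Dashed lines mark 1.5-fold; Hsph1, Hspa4l, Hspa8 and Hspa1b lie below the lower line, and the cloud is wider at low FPKM.

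The members summed to 1877 FPKM in haploinsufficient and 994 FPKM in deficient cells, 0.315% and 0.167% of all FPKM in the deposited table. Hspa8 made up 83.9% of the wt/fl sum, 79.3% of the fl/fl sum and 89.0% of the difference. Without Hspa8 the sum was 303 and 206 FPKM, 67.9% of the wt/fl level. Hspa8 was at 33.0 times the level of Stub1, which encodes the ubiquitin ligase CHIP, in wt/fl and at 16.5 times in fl/fl, and at 34.0 and 16.2 times the level of Bag1, an exchange factor. Against Dnaja1, a J-domain protein gene that was itself lower, Hspa8 was at 12.1 times in wt/fl and 11.1 times in fl/fl.

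Partner genes of HSP70 were listed by role, with chaperone values known. Beside the counts of each list, 1.53% of all compared genes were lower and 0.791% higher by at least 1.5-fold. J-domain proteins hand clients to HSP70. Of 20 compared, 1 was lower by at least 1.5-fold, Dnaja1, with 130 FPKM in haploinsufficient and 70.9 FPKM in deficient cells. The next most abundant, Dnajc9 (97.8 and 99.6 FPKM) and Dnajc7 (95.2 and 89.1 FPKM), differed little, and the median log2 difference of the list was 0.02. Dnajb1, the J-domain gene best known as heat inducible, was named after its values were seen and was at 59.8 and 39.8 FPKM, a log2 difference of −0.57 that is just short of the 1.5-fold limit only because 1 FPKM was added.
Of 7 compared regulators of HSP70, 2 were lower. Stip1, which encodes HOP, the bridge between HSP70 and HSP90, was at 54.3 FPKM in haploinsufficient and 29.0 FPKM in deficient cells. St13, which encodes HIP, a protein that stabilizes the ADP-bound state of HSP70, was at 110 and 69.9 FPKM. Stub1 was at 47.7 FPKM in both, and the list median was −0.0014.

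HSP90 receives clients from HSP70, and its list was the one with the lowest median among the 9 partner lists, −0.53 over 12 genes. Of these, 5 were lower by at least 1.5-fold and 0 were higher, beside 1.53% and 0.791% of all compared genes. These 5 were Chordc1, whose protein binds HSP90 (81.8 FPKM in haploinsufficient and 40.4 in deficient cells), the inducible HSP90 gene Hsp90aa1 (387 and 208), the ATPase activators Ahsa1 (95.2 and 57.8) and Ahsa2 (50.8 and 32.8), and the immunophilin gene Fkbp4 (81.6 and 53.0). Hsp90ab1, the constitutive HSP90 gene, was at 936 and 647 FPKM and Ptges3, which encodes p23, at 99.1 and 68.1 FPKM, both short of 1.5-fold. Chaperonins fold proteins inside a closed barrel. None of the 10 compared was lower by 1.5-fold, although 9 had a log2 difference below 0, with a median of −0.16. The mitochondrial pair came nearest to the limit, Hspd1 with 129 and 86.1 FPKM and Hspe1 with 571 and 390 FPKM, while Cct5 (155 and 142 FPKM) and Cct4 (145 and 127 FPKM) of the cytosolic ring lay closer to 0.

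The lists of mitochondrial partners of Hspa9 and of endoplasmic reticulum chaperones gave 0 genes past 1.5-fold in either direction. The mitochondrial genes Hspd1 and Hspe1, at log2 differences of −0.577 and −0.549, were listed with the chaperonins and not here. The median of the 12 genes that work with Hspa9 was 0.12, with Pam16 at 51.9 FPKM in haploinsufficient and 57.2 in deficient cells, Hscb at 43.9 and 52.6, and Iscu at 43.0 and 46.3. The 15 endoplasmic reticulum chaperones had a median of 0.0059, with Hsp90b1 at 423 and 363 FPKM, Calr at 120 and 132, and Pdia4 at 105 and 99.2. Other HSP70 relatives included Hspa5, the BiP gene of the endoplasmic reticulum, at 285 and 264 FPKM, Hyou1 at 20.8 and 17.8 FPKM, and Hspa12a at 0.972 and 1.22 FPKM. Hspa1l, the neighbor of Hspa1a, was higher by more than 1.5-fold at a very low level, 0.854 and 1.82 FPKM, and shares 50-base stretches with Hspa1a and Hspa1b. It was the 1 partner gene past 1.5-fold in that direction.
The transcript of Hsf1, the factor that binds heat shock elements, was at 44.4 and 39.9 FPKM, that of Hsf2 at 3.49 and 3.71 FPKM, and that of Hsbp1, which encodes an HSF1-binding protein, at 70.2 and 72.2 FPKM, so 0 of 3 compared heat shock factor genes passed 1.5-fold. Small heat shock proteins were mostly too low to compare. Hspb11 was at 17.0 and 15.7 FPKM and Hspb6 at 3.07 and 3.38 FPKM, Hspb1, below the limit of 1 FPKM, was at 0.885 and 0.443 FPKM, and Hspb8 was listed at 0 in both genotypes.

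**Figure D4:**
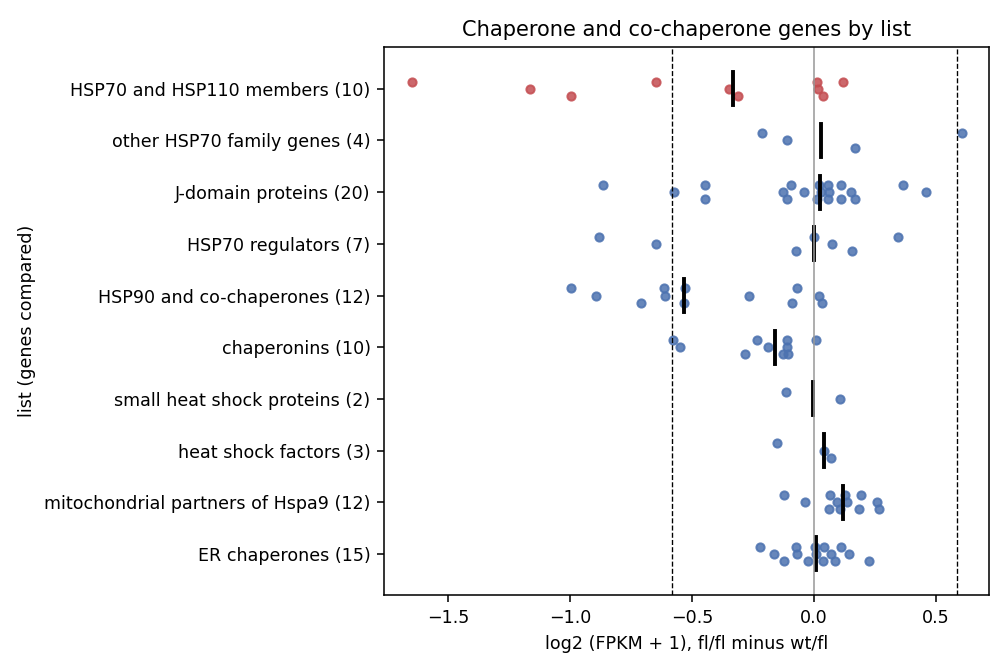
Log2 difference between genotypes (fl/fl minus wt/fl, 1 FPKM added) of each compared gene in the HSP70 and HSP110 family (red) and 9 partner lists (blue), with a black bar at the median of each list and dashed lines at 1.5-fold. Points past the lower line stand in the members, the J-domain proteins, the HSP70 regulators and the HSP90 list. The chaperonin, small heat shock protein, heat shock factor, mitochondrial partner and ER lists stay between the lines.

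The genes most like Hspa8 were sought among the 622 genes with at least 100 FPKM in wt/fl, by the distance between log2 differences over the 2 pooled values. The 10 nearest were Tsc22d3 (204 FPKM in haploinsufficient and 102 in deficient cells), Zfp36l2, Gpr171, Hsp90aa1, Dnaja1, Plac8, Ifi27l2a, St13, Hspd1 and Hspe1, so that chaperone genes and other genes were mixed. Only S100a8, S100a9, Hsph1, Cxcr4 and Apobec3 among these abundant genes had a lower log2 difference than Hspa8. All of them were below 100 FPKM in fl/fl, as were several of the 10 nearest. The limit was set on wt/fl alone, so it favours genes lower in fl/fl and leaves out genes that reach 100 FPKM only in fl/fl.

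The targeted gene and markers of other cells were read in the same table. Myh9 was at 50.6 FPKM in haploinsufficient and 21.1 FPKM in deficient cells. These values cover the whole gene, whereas the study deleted a single exon and checked the loss in mRNA of that exon and in protein. B cell markers summed to 5031 FPKM in haploinsufficient and 5324 FPKM in deficient cells, and 0 of 8 differed by 1.5-fold. Neutrophil markers summed to 383 FPKM in haploinsufficient and 71.5 FPKM in deficient cells, with 7 of 8 compared lower by at least 1.5-fold. The exception was Cxcr2, at 5.99 and 4.96 FPKM. Elane and Mpo were too low to compare, at 0.119 and 0.0916 FPKM in haploinsufficient cells and 0 in deficient cells. Erythroid markers, of which 4 of 6 names were found, summed to 55.2 and 7.52 FPKM, and plasma cell markers to 8.77 and 2.65 FPKM. T cell markers summed to 8.26 and 6.82 FPKM, and macrophage and monocyte markers to 13.0 and 11.4 FPKM. The part of these other cells in the chaperone values was not tested.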

How the data were processed

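RNA of sorted follicular B cells was amplified (Ovation RNA-Seq system V2) and sequenced from 6 samples. The submitters' processing notes name Bowtie, TopHat and Cufflinks, with versions not given in the sources used here. The authors deposited 1 table in the layout of a Cufflinks comparison, with 25017 entries and a pooled FPKM per genotype. Further columns hold the authors' own comparison (fold change, test statistic, p and q) and were not used. The notes name mm10 and GRCm38, but chromosome names ending in "random" and the gene positions are those of mm9, and only 1 of the 10 members overlaps its GRCm38 transcript. Positions were not converted.

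FPKM was summed per gene name, after 44 entries whose symbol a spreadsheet had turned into a date were left out (Python 3.11.15, pandas 2.3.3). Each member has 1 entry. Genes averaging 1 FPKM or more were compared by log2(FPKM + 1), fl/fl minus wt/fl, which understates differences of low genes, and a gene was called at 1.5-fold. With 1 pooled value per genotype no test was run. The steps were checked on data with known folds. Named in each partner list were its 3 genes highest in wt/fl and any past 2-fold, in addition to all members, Myh9 and the 10 abundant genes nearest Hspa8; further genes were named after their values were seen. Members, lists and rules were chosen with earlier results of these data known. Protein sequences were not analysed here.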

Additional observations from a re-analysis of the deposited data

How the results depend on the processing

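No paired analysis was possible because the table holds 1 pooled value per genotype. For the same reason no replicate was left out, so whether 1 mouse decides a value is unknown. Of 258 recomputed values, 241 kept their side of 1.5-fold or moved by little, where a count could change by up to 1.5 times. Some of these could not move, such as the member sum under another pseudocount or any single-entry member under another choice of entry. The log2 differences of Hsph1, Hspa4l, Hspa8 and Hspa1b stayed past the lower 1.5-fold limit under each pseudocount and scaling. With a pseudocount of 0.1 or 0.01 FPKM the member median was −0.52 or −0.56, Hspa1a passed the limit (−0.64 and −0.70), and at 0.01 FPKM 2 J-domain genes were lower, beside 2.59% and 2.82% of all genes at 0.1 and 0.01 FPKM. With a mean of at least 5 FPKM, which keeps 6 members, the median was −0.49, that of the other HSP70 relatives −0.16 and that of the small heat shock proteins −0.11; without a filter the relatives had 0.17. At 2-fold, 2 members were lower (Hsph1 and Hspa4l, with Hspa8 just short) beside 0.405% of all genes, and 0 J-domain, 0 regulator and 0 HSP90 genes. With the limit lowered to a log2 difference of 0.32, 4 J-domain genes and 2 chaperonins were lower beside 5.48% of all genes, and quantile normalization gave 1 chaperonin beside 1.34%. Without Hspa8 the fl/fl sum was 67.9% of wt/fl. Where no cause is named, the cause was not tested.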

Other observations

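Among the partner genes with a RefSeq promoter window and a mean of at least 1 FPKM, 4 held 3 alternating GAA units 2 bases apart: Chordc1, Hspd1, Hspe1 and Dnajb6. Their log2 differences ran from −0.999 in Chordc1 to −0.04 in Dnajb6, with a median of −0.56. That median lies between the values of Hspd1 (−0.577) and Hspe1 (−0.549), which each held 3 pairs and 2 runs of 3 units. Whether the windows of Hspd1 and Hspe1 share bases was not examined, so the 4 genes may not stand for 4 separate promoters. Another 12 held a pair of units but no run of 3, with a median of −0.05 and Dnaja1 (−0.87) and Fkbp4 (−0.61) past 1.5-fold. The 54 with neither had a median of 0.02, and Stip1, Ahsa1 and Ahsa2 among them were past 1.5-fold. Of all compared genes with a window, 46 held 3 units, with a median of −0.04 and 2 of them lower by at least 1.5-fold, Hsph1 and Chordc1. The 7463 without 3 units had a median of 0.0032, and 101 of them were lower by that much. These are counts of letters in windows and were not tested, and the lists were drawn up with chaperone values known.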
